A study of Mus musculus with 24 samples.

Results

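Aminoacyl-tRNA synthetases are the enzymes that load each tRNA with its amino acid. Their genes were taken as all rows of the expression table whose mouse symbol is a single letter followed by "ars", with or without a closing digit, together with Eprs, Farsa and Farsb. This gave 37 of 17094 genes, 20 for cytosolic enzymes and 17 for mitochondrial enzymes (symbols ending in 2). All 37 are annotated as protein-coding in GENCODE vM21 on GRCm38.

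The libraries came from primary chondrocytes of wild-type (WT) mice, grown alone (normal culture) or in transwell chambers with primary dermal fibroblasts (co-culture). IL-1β, an inflammatory cytokine, was added at 10 ng/ml 24 h after attachment or left out, and the chondrocytes of the lower chamber were collected 36 h or 72 h later. The 8 groups were thus normal culture without IL-1β, normal culture with IL-1β, co-culture without IL-1β and co-culture with IL-1β, each at 36 h and at 72 h, with 3 libraries per group and 24 in all. All groups carried the same WT genotype. The age and strain of the animals, the number pooled, and the medium of the co-cultures are not given in the sources used here. Nothing in the labels says that libraries of 1 group came from separate cultures or animals, so p-values measure the spread between these libraries, which may be technical.

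Each cytosolic synthetase charges the tRNAs used by ribosomes in the cytosol, and a separate nuclear gene usually encodes the mitochondrial enzyme for the same amino acid. Gars and Kars are exceptions, since each encodes both forms, and mitochondrial glutamine tRNA is charged by an indirect route. The enzymes fall into a class I and a class II by the fold of the catalytic domain. Several cytosolic enzymes sit together in the multisynthetase complex. Many cytosolic synthetase genes are textbook targets of ATF4, a transcription factor of the integrated stress response that binds a CCAAT-enhancer-binding protein and ATF response element (CARE), and Wars is also known as an interferon-induced gene. Chondrocytes secrete large amounts of collagen and proteoglycan.

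Because the cytosolic genes include known ATF4 targets, the promoters were searched for the CARE-like letters TGATGNAA on both strands, in RefSeq windows of GRCm38.p6 from 250 bases before to 50 bases after each gene start. Of 27 synthetase genes with a promoter entry, 5 held a match: Aars, Gars, Iars, Tars and Yars. All 5 are cytosolic, out of 13 cytosolic genes with an entry (38.5%), and 0 of 14 mitochondrial genes held the letters. The same letters occurred in a window of 4.51% of all 27025 genes with an entry. Of the 13485 such genes in the expression table, 3.16% held them. The stricter letters TGATGCAA, which are contained in the first motif, occurred in 4 of the 13 cytosolic genes (30.8%) and in 1.03% of all genes with an entry. These counts are over whole windows, and not every match is printed: among the printed stretches, those of Iars, Tars and Yars hold the stricter letters. The other 10 synthetase genes had no entry.

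A match of each of the 5 genes is printed here as 30 bases along the strand of each gene, 5′ to 3′, with the 8 matching letters (or their reverse complement) in capitals, so that they can be set beside the changes of these genes. Positions are those of the first capital letter counted from the RefSeq gene start, which is base 1. The Aars match starts at 10 (chr8:111033840-111033869, plus strand). The Gars match starts at -30 (chr6:55037960-55037989, plus strand) and the Iars match at 8 (chr13:49682126-49682155, plus strand). The Tars match starts at -15 (chr15:11399655-11399684, minus strand) and the Yars match at 4 (chr4:129189895-129189924, plus strand).
Aars: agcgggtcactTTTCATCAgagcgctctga
Gars: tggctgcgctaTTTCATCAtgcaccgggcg
Iars: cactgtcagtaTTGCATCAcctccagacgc
Tars: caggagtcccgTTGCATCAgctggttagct
Yars: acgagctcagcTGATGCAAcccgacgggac

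A match describes the letters of the window and is not evidence of a binding site. No match says only that these letters were not in this window.

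Values are FPKM (fragments scaled to gene length and to the mapped fragments of the library), as deposited by the authors. Every difference is one of log2(FPKM + 1), a scale that shrinks the change of genes near 0. Each gene was tested with limma over all 24 libraries, among the 12178 genes that reached 1 FPKM in 3 or more libraries. A gene passed at a Benjamini-Hochberg adjusted p under 0.05, and "rose" or "fell" is used for such genes alone. All 37 synthetase genes were among those tested. The libraries summed to between 438242 and 506621 FPKM and had 11335 to 11607 genes at 1 FPKM or more, and the sequencing depth is unknown. The IL-1β libraries of normal culture at 72 h varied most among themselves, with a median SD of 0.120 over genes against 0.0481 to 0.0853 in the other groups.

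The chondrocyte markers Col2a1, Acan, Sox9, Col9a1, Col11a1, Hapln1 and Comp were at 1 FPKM or more in 24 of 24 libraries. The other chondrocyte markers were lower: Cnmd was at 1 FPKM or more in 12 libraries and Matn3 in 6. The cartilage matrix gene Matn1 lay between 0 and 0.07 FPKM. Of the keratinocyte markers, Krt5 and Krt1 stayed at or below 0.11 FPKM and Krt10 reached 1.22. The endothelial genes Pecam1, Cdh5 and Kdr stayed at or below 0.31 FPKM and Tek reached 1.51, and the leukocyte gene Ptprc stayed at or below 0.65. Genes of skeletal muscle, macrophages and dermal fibroblasts were detected in every group. The summed FPKM of 8 muscle genes was 222 ± 14.5 (SD, n = 3) in untreated normal culture at 36 h, 248 ± 11.6 with IL-1β, 40.2 ± 3.77 without IL-1β at 72 h and 81.2 ± 4.65 with it. The sum of 8 dermal fibroblast genes was 1559 ± 8.46, 3331 ± 37.7, 838 ± 57.9 and 1486 ± 54.3 FPKM in the same order. In co-culture, again in that order, the muscle sum was 197 ± 12.8, 204 ± 8.43, 53.1 ± 4.32 and 103 ± 14.1, and the fibroblast sum 1242 ± 6.23, 2740 ± 55.4, 729 ± 42.4 and 1400 ± 51.1. For 8 macrophage genes the sums were 54.6 ± 4.70, 76.9 ± 6.20, 98.5 ± 3.88 and 142 ± 10.8 in normal culture and 52.0 ± 2.53, 70.5 ± 5.69, 97.8 ± 5.17 and 141 ± 9.44 in co-culture. For 10 chondrocyte genes they were 803 ± 16.4, 311 ± 8.92, 1100 ± 35.6 and 299 ± 4.80 in normal culture and 875 ± 13.5, 309 ± 4.23, 1087 ± 36.6 and 307 ± 22.2 in co-culture. The chondrocyte sum was thus lower, and the fibroblast, macrophage and muscle sums higher, with IL-1β in normal culture at both times. Such sums are set largely by the most abundant genes and do not speak for every gene of a list. The median over libraries was 64.4 FPKM for Lyz2 against 6.54 for Cd68, the next macrophage gene. Among the fibroblast genes it was 601 for Dcn, 356 for Ly6a and 331 for Lum against 51.7 for Pdgfra. With IL-1β, the muscle and fibroblast sums were lower in co-culture than in normal culture at 36 h, and at 72 h the muscle sum was higher. Their part in the results below was not tested. In bulk libraries, fewer cells of a type and less RNA per cell cannot be told apart.

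Averaged over the 24 libraries, the cytosolic genes ranged from 19.4 to 143 FPKM with a median of 46.6. The mitochondrial genes ranged from 2.22 to 20.4 FPKM with a median of 4.85. Nars, for asparaginyl-tRNA synthetase, had the highest mean of the family, followed by Gars for glycyl-tRNA synthetase. At the other end stood Ears2 and Mars2, the mitochondrial glutamyl- and methionyl-tRNA synthetases, which differed from each other by less than their spread over libraries.

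IL-1β in normal culture lowered nearly the whole cytosolic family at 36 h. Of the 20 cytosolic genes, 19 fell and 0 rose, with a median difference of -0.82, while 41.5% of all tested genes fell and 25.9% rose (67.5% in either direction), with a median of -0.09. The summed cytosolic level was 1238 ± 16.0 FPKM (SD, n = 3) without IL-1β and 696 ± 27.4 with it. Of the 17 mitochondrial genes, 10 fell, 1 rose and 6 did not pass, with a median of -0.19. Their summed level was 114 ± 0.320 FPKM without IL-1β and 92.2 ± 1.95 with it.

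**Figure D1:**
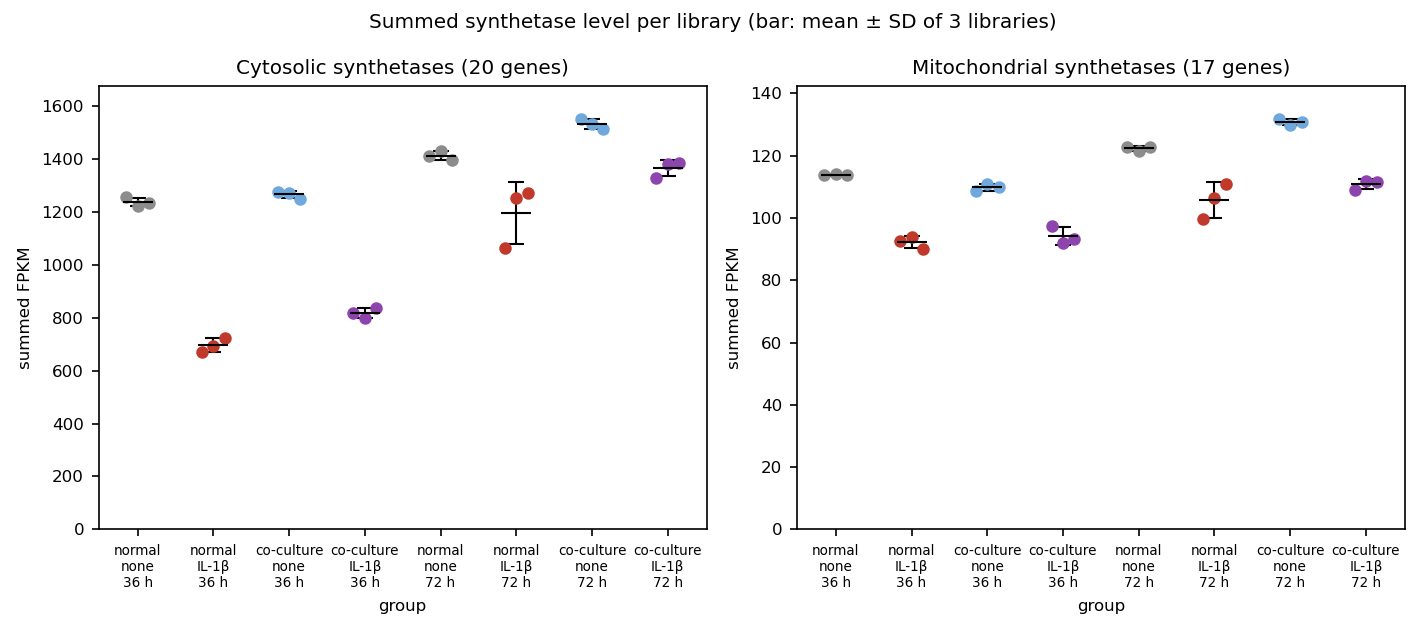
Summed FPKM of the 20 cytosolic (left) and 17 mitochondrial (right) synthetase genes in each library, by group, with the axis from 0; points are libraries, and bars show the mean ± SD of 3 libraries. The cytosolic sum at 36 h is 696 with IL-1β against 1238 without it in normal culture, and at 72 h it is 1196 against 1413.

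Aars, for alanyl-tRNA synthetase, had the largest fall of the family. Its level was 111, 110 and 109 FPKM in the 3 untreated libraries at 36 h and 34.0, 38.2 and 41.2 FPKM in the 3 IL-1β libraries. The groups lay far apart, with every treated library below every untreated library. The difference was -1.53 (SE 0.076, adjusted p = 7.30e-14, limma), or 0.347 times the untreated level of FPKM + 1. The gene spans chr8:111033144-111057664 on the plus strand of GRCm38. Exons of Exosc6 on the same strand cover 14.3% of its exon bases, so reads there cannot be assigned to 1 gene. Exosc6, an exosome subunit, fell by 0.46.

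Tars, for threonyl-tRNA synthetase, was at 67.4, 65.3 and 64.0 FPKM without IL-1β and at 27.4, 27.0 and 29.8 FPKM with it, a difference of -1.20 (SE 0.050, adjusted p = 3.30e-15, limma). Iars, for isoleucyl-tRNA synthetase, was at 52.0, 49.8 and 53.5 FPKM against 22.5, 21.2 and 25.0 FPKM, a difference of -1.14. Nars, the most abundant member, was at 143, 143 and 146 FPKM against 69.2, 71.4 and 78.8 FPKM, a difference of -0.97. In each of these 3 genes the treated and untreated libraries did not overlap. Most genes printed by library were picked for large changes that passed, so a lack of overlap, here and below, follows in part from that choice. The share of all tested genes without overlap was not counted. Falls of similar size were found for the cysteinyl (Cars, -1.14) and valyl (Vars, -1.02) enzymes, for the fused glutamyl-prolyl enzyme (Eprs, -0.96) and for the leucyl (Lars, -0.96) and tyrosyl (Yars, -0.94) enzymes. Gars followed with -0.87.

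Smaller falls were found for the seryl (Sars, -0.76), methionyl (Mars, -0.73), lysyl (Kars, -0.60), arginyl (Rars, -0.60) and histidyl (Hars, -0.56) enzymes. The beta and alpha subunits of phenylalanyl-tRNA synthetase fell by 0.46 (Farsb) and 0.32 (Farsa), and the aspartyl enzyme (Dars) by 0.26. Qars, the glutaminyl enzyme, was the exception among the 20. It was at 41.9, 43.0 and 43.2 FPKM without IL-1β and at 42.0, 43.9 and 41.5 FPKM with it, and these values overlapped. Its difference was -0.01 with a 95% interval from -0.09 to 0.07 (adjusted p = 0.873, limma). Under other scalings its sign changed, as given in the closing section.

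**Figure D2:**
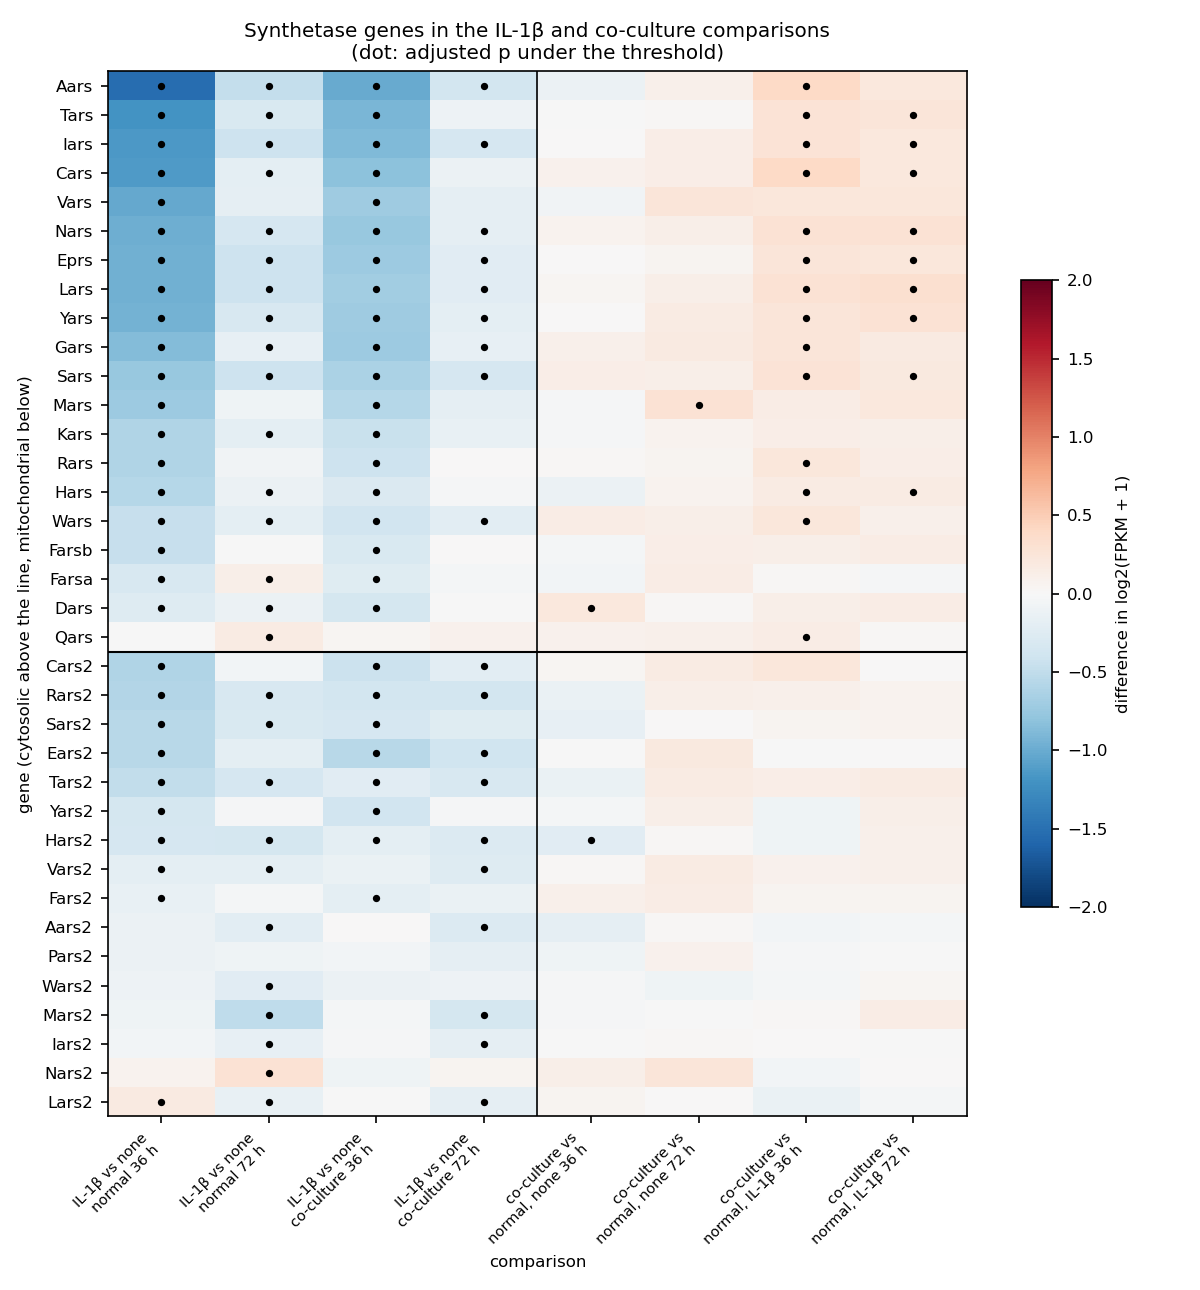
Differences in log2(FPKM + 1) of 36 synthetase genes (rows, cytosolic above the black line and mitochondrial below) in the 4 IL-1β and 4 co-culture comparisons (columns); blue is lower, red is higher, and a dot marks an adjusted p under 0.05. The cytosolic rows are darkest at 36 h in normal culture, from -1.53 for Aars to -0.01 for Qars.

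Among the mitochondrial genes at 36 h, the largest falls were those of the cysteinyl (Cars2, -0.60), arginyl (Rars2, -0.59), seryl (Sars2, -0.56), glutamyl (Ears2, -0.55) and threonyl (Tars2, -0.49) enzymes. Lars2, the mitochondrial leucyl enzyme, rose. It was at 4.08, 4.02 and 4.01 FPKM without IL-1β and at 4.67, 4.77 and 4.71 FPKM with it, with no overlap. The difference was 0.18 (SE 0.063, adjusted p = 0.0136, limma), and it did not pass after rescaling to TPM, where it was 0.15. Exons of Rab3gap2, which fell by 0.19, share 22.9% of the exon bases of Iars2 on the opposite strand, and the strandedness of the counting is not given in the sources used here.

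Cytosolic and mitochondrial genes were paired where their symbols differ only by the closing 2, which gave 14 amino acids. Farsa and Farsb with Fars2, and Eprs with Ears2 and Pars2, were not paired this way and are left out. In 13 of these 14 pairs the cytosolic gene had the more negative difference at 36 h in normal culture. The arginine pair was nearly equal, with -0.60 for Rars and -0.59 for Rars2. The widest gap was that of Aars and Aars2, at -1.53 and -0.11. With a pseudocount of 0.1 in place of 1, which shrinks the low mitochondrial genes less, 12 of 14 pairs showed this order. In co-culture at 36 h it was 14 of 14 with either pseudocount. At 72 h the cytosolic gene was the more negative in 7 of 14 pairs in each culture.

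**Figure D3:**
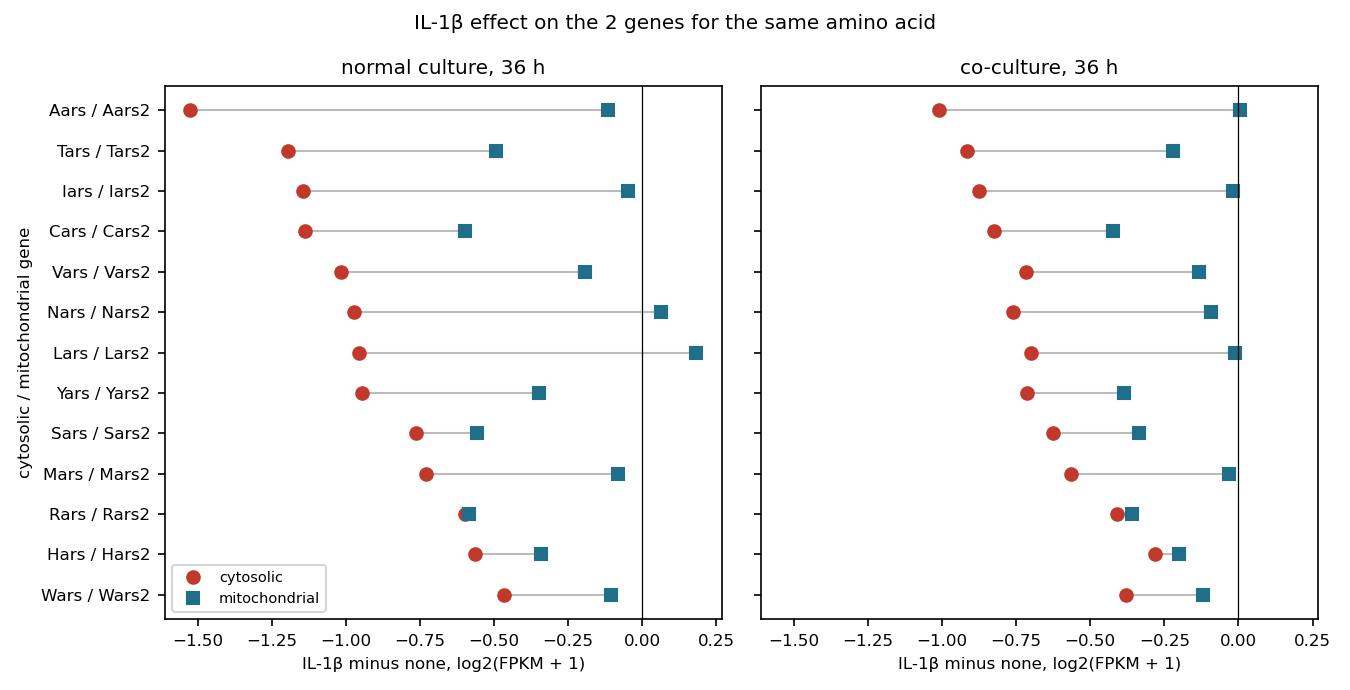
IL-1β effect at 36 h, as a difference in log2(FPKM + 1), on the cytosolic (red circles) and mitochondrial (blue squares) gene for each of 13 amino acids, in normal culture (left) and co-culture (right), ordered by the cytosolic value in normal culture. The circle lies left of the square in all 13 pairs drawn, in both cultures, from -1.53 against -0.11 for Aars and Aars2 to -0.60 against -0.59 for Rars and Rars2 in normal culture.

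The cytosolic genes were also read by structural group at 36 h, beside the 41.5% of all tested genes that fell. In class I, where the fused Eprs, which holds a domain of each class, was counted, 9 of 10 fell with a median of -0.95. In class II, 10 of 10 fell with a median of -0.68. Of the 8 enzymes of the multisynthetase complex, 7 fell with a median of -0.67, and of the 12 cytosolic genes outside it, 12 fell with a median of -0.91. The 3 scaffold genes of the complex also fell, by 0.36 for Aimp1, by 0.84 for Aimp2 and by 0.31 for Eef1e1. Differences between these groups of genes were not tested.

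Of 13 cytosolic synthetases often reported as ATF4-responsive, 13 fell with a median of -0.96, and of the other 7, 6 fell with a median of -0.46, beside 41.5% of all tested genes that fell. The list was chosen with earlier results of these data known, so this split is not independent of them. The 5 genes whose printed windows hold the CARE-like letters had differences of -1.53 (Aars), -1.20 (Tars), -1.14 (Iars), -0.94 (Yars) and -0.87 (Gars). The 8 cytosolic genes with a promoter entry and no match ranged from -0.96 (Eprs) to -0.01 (Qars), and Eprs alone among them lay within the range of the 5. Of the cytosolic genes without an entry, Cars (-1.14), Vars (-1.02), Nars (-0.97) and Lars (-0.96) also lay within that range. Rars (-0.60), Hars (-0.56) and Wars (-0.47), also without an entry, did not. Whether the letters go with the size of the fall was not tested.

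Genes of the ATF4 pathway other than synthetases fell in the same libraries. Of 30 regulators and targets, 27 fell and 3 rose, with a median of -1.11. Atf4 itself had 215 ± 14.5 FPKM (SD, n = 3) without IL-1β and 100 ± 5.89 with it, a difference of -1.09. The pseudokinase gene Trib3 fell from 42.8 ± 0.647 to 5.31 ± 0.891 FPKM, a difference of -2.80. Differences were -2.36 for the amino acid transporter gene Slc7a5, -2.10 for Chac1, which degrades glutathione, -1.60 for Ddit3, a stress transcription factor, and -1.32 for Asns, asparagine synthetase. The list had exceptions: the cystine transporter gene Slc7a11 rose by 1.76 and Ddit4, an mTORC1 inhibitor, by 0.65.

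Other genes of translation and growth were read against the shares of all tested genes in this comparison, 41.5% lower and 25.9% higher. Among 9 cytosolic elongation and termination factors, 5 fell and 0 rose with a median of -0.19, and among 9 mitochondrial translation factors 5 fell and 0 rose with a median of -0.17. Eef1a1, which delivers charged tRNA to the ribosome, differed by -0.01 and did not pass. Among 14 accessory genes of tRNA charging, 6 fell, a share near that of all tested genes, and 2 rose, and the peptidyl-tRNA hydrolase gene Ptrh2 had the largest fall at -0.81. Of 10 MYC and growth genes 8 fell with a median of -0.77, among them Nop56 and Nop58, both of ribosome biogenesis, at -1.36 and -1.23, and Myc at -0.83. Of 10 ER stress genes, 6 fell and 0 rose, with a median of -0.24. Differences between these lists and the synthetases were not tested.

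Wars, the tryptophanyl enzyme, was examined beside interferon genes because of its known induction by interferon. It was at 21.0, 21.6 and 21.6 FPKM without IL-1β and at 14.77, 15.90 and 15.03 FPKM with it at 36 h in normal culture, with no overlap. The difference was -0.47 (SE 0.063, adjusted p = 9.33e-07, limma). Of 13 interferon-induced genes tested in the same comparison, 2 rose (Gbp2 and Tap1, by 0.51 and 0.78) and 1 fell, and Irf1 differed by 0.04 and did not pass, where 67.5% of all tested genes passed (25.9% higher and 41.5% lower). In co-culture Wars fell by 0.38 at 36 h.

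In co-culture at 36 h, IL-1β again lowered most cytosolic genes. Of the 20, 19 fell and 0 rose, with a median of -0.66, beside 35.3% of all tested genes that fell and 23.4% that rose (58.7% together). The summed cytosolic level was 1266 ± 14.7 FPKM without IL-1β and 817 ± 18.9 with it. Aars was at 102, 101 and 101 FPKM against 50.1, 48.6 and 50.4 FPKM, a difference of -1.01 (SE 0.076, adjusted p = 1.47e-10, limma), and the libraries did not overlap. Tars was at 67.4, 62.7 and 64.8 FPKM against 34.0, 33.5 and 34.4 FPKM, a difference of -0.92, and Iars differed by -0.88. Qars differed by 0.05 and did not pass, but passed as higher with median-of-ratios scaling. Of the mitochondrial genes 9 of 17 fell and 0 rose, with a median of -0.19, and the largest fall was that of Ears2 at -0.56. Of the 30 ATF4 pathway genes 27 fell and 2 rose, with a median of -0.77.

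Whether co-culture altered the IL-1β effect was asked with the interaction of both. At 36 h, 5 cytosolic genes had a smaller IL-1β fall in co-culture than in normal culture, and 0 had a larger one, where 4.73% of all tested genes had a positive and 2.23% a negative interaction (6.96% together). These were Aars with 0.52 (SE 0.107, adjusted p = 0.00427, limma), Cars with 0.31, Tars with 0.28, Hars with 0.28 and Eprs with 0.23. The interaction was positive in 19 of 20 cytosolic genes, with a median of 0.20 beside 0.03 over all tested genes. Aars and Hars passed in each of 20 alternative settings, Tars in 19, Cars in 12 and Eprs in 6. The count rose to 12 when the compared groups were fitted alone, with or without the replicate block. The share of all tested genes in those fits is not given here. The count was 2 without the second untreated co-culture library. It was 3 without the first or the third library of untreated normal culture, the first or the second of normal culture with IL-1β, the third of untreated co-culture, or the first or the third of co-culture with IL-1β. Of the 17 mitochondrial genes 0 passed by limma, and 3 had an unadjusted p under 0.05. Among the 30 ATF4 pathway genes the interaction was positive in 13 that passed and negative in 1, with 0.46 for Atf4, 0.69 for Trib3 and 0.44 for Asns.

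Seen from the side of co-culture, the treated chondrocytes at 36 h had more synthetase mRNA than those cultured alone. With IL-1β, 14 of 20 cytosolic genes were higher in co-culture and 0 lower, with a median of 0.23, beside 6.38% of all tested genes that were higher and 4.17% that were lower (10.6% together). Cars was at 17.0, 16.9 and 18.1 FPKM in normal culture and at 24.1, 21.7 and 23.3 FPKM in co-culture, a difference of 0.39 (SE 0.063, adjusted p = 2.50e-04, limma). Aars was at 34.0, 38.2 and 41.2 FPKM against 50.1, 48.6 and 50.4 FPKM, a difference of 0.39, and Lars was at 20.9, 21.4 and 23.8 FPKM against 27.7, 26.7 and 27.2 FPKM, a difference of 0.29. Every co-culture library lay above every normal library in these 3 genes. The mitochondrial genes had a median of 0.02, and 0 of 17 passed by limma, with 2 at an unadjusted p under 0.05. Without the first IL-1β library of normal culture, 8 of the 14 still passed.

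Without IL-1β, co-culture and normal culture differed in few synthetases. At 36 h Dars rose, from 66.0, 64.6 and 66.0 FPKM to 76.7, 75.9 and 74.9 FPKM, with no overlap and a difference of 0.21 (SE 0.050, adjusted p = 0.00561, limma). Hars2, the mitochondrial histidyl enzyme, fell, from 10.0, 9.34 and 8.91 FPKM to 8.70, 7.94 and 7.16 FPKM, a difference of -0.22 (adjusted p = 0.0205, limma). Among all tested genes 6.28% rose and 9.2% fell in this comparison (15.5% together). Hars and Hars2 lie head to head and share 195 exon bases on opposite strands, and Hars differed by -0.11. The Hars2 call was lost without the first normal library, or without the second or the third co-culture library.

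At 72 h without IL-1β, 1 gene passed, Mars, where 1.72% of all tested genes rose and 1.68% fell (3.4% together). Mars was at 40.3, 43.2 and 42.8 FPKM in normal culture and at 52.5, 51.8 and 50.6 FPKM in co-culture, with no overlap. The difference was 0.29 (SE 0.079, adjusted p = 0.0450, limma), and the call was lost without any single library of the 6. All 20 cytosolic genes had a positive difference at this time, with a median of 0.12 beside -0.006 over all tested genes. Of the 20, 10 had an unadjusted p under 0.05 by limma, and the share of all tested genes at that cut was not counted. Fitting the compared groups alone called 10 synthetases. That fit also called 21 of 30 ATF4 pathway genes as higher, and its share over all tested genes is not given here. The 10 are therefore not read as particular to the synthetases.

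With IL-1β at 72 h, 9 of 20 cytosolic genes were higher in co-culture and 0 lower, with a median of 0.20, beside 7.22% and 5.26% of all tested genes (12.5% together). Lars was at 32.5, 40.6 and 39.5 FPKM in normal culture and at 47.3, 46.2 and 47.1 FPKM in co-culture, a difference of 0.32 (SE 0.059, adjusted p = 0.00209, limma). Yars was at 36.7, 46.8 and 47.9 FPKM against 49.7, 56.2 and 54.8 FPKM, a difference of 0.29. Nars was at 125, 152 and 146 FPKM against 171, 175 and 168 FPKM, a difference of 0.29. Groups did not overlap in these 3 genes, although the first normal library was well below the other 2 in each. Without that library 5 genes passed, without the third library of the same group 18, and without the second co-culture library 4. When the compared groups were fitted alone, 0 of 37 passed by limma, with 7 at an unadjusted p under 0.05, and with the replicate number as a block in that fit 0 passed, with 17 at an unadjusted p under 0.05. Same-numbered libraries deviated together in this comparison. A block over all libraries called 10 genes. Of the mitochondrial genes 0 of 17 passed by limma, and 2 had an unadjusted p under 0.05.

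At 72 h the IL-1β effect on the cytosolic genes was smaller. In normal culture 14 of 20 fell and 2 rose, with a median of -0.19, beside 40.3% of all tested genes that fell and 23.1% that rose (63.4% together), with a median of -0.08. The summed cytosolic level was 1413 ± 17.6 FPKM without IL-1β and 1196 ± 116 with it. Aars was at 128, 129 and 123 FPKM against 74.9, 98.4 and 102 FPKM, a difference of -0.48 (SE 0.076, adjusted p = 1.18e-05, limma), and Lars was at 50.3, 52.3 and 48.6 FPKM against 32.5, 40.6 and 39.5 FPKM, a difference of -0.42. Treated and untreated libraries of both genes did not overlap. Qars rose by 0.16 (adjusted p = 8.87e-04, limma), from 44.6, 44.2 and 43.7 FPKM to 47.6, 49.0 and 52.2 FPKM, and Farsa by 0.12 (adjusted p = 0.0496), from 20.3, 20.8 and 20.5 FPKM to 22.2, 21.7 and 23.5 FPKM. Both calls depended on the scaling, and Farsa passed in 3 of 14 alternative settings. Rescaling to TPM shifted the all-gene median to -0.20, and 17 cytosolic and 13 mitochondrial genes then fell and 0 rose. With median-of-ratios scaling 13 synthetases fell and 3 rose. The shares of all tested genes above are those without rescaling, and those under either scaling are not given here. The rescaled counts are therefore not read as particular to the synthetases. Of the 28 synthetases past the threshold in this comparison, 17 passed when the compared groups were fitted alone and 14 with the replicate block added to that fit.

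Of the 17 mitochondrial genes in the same comparison, 11 fell and 1 rose, with a median of -0.20. Mars2 had the largest fall of the family at this time. It was at 2.81, 2.95 and 3.19 FPKM without IL-1β and at 1.47, 1.98 and 1.96 FPKM with it, a difference of -0.51 (SE 0.092, adjusted p = 5.24e-05, limma). Nars2, the mitochondrial asparaginyl enzyme, rose by 0.29, from 3.38, 3.98 and 4.14 FPKM to 4.58, 4.80 and 5.32 FPKM. Neither gene's groups overlapped, and the rise of Nars2 did not pass after rescaling to TPM.

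In co-culture at 72 h, 9 of 20 cytosolic genes fell and 0 rose, with a median of -0.17, and 10 of 17 mitochondrial genes fell and 0 rose, with a median of -0.22, beside 30.6% of all tested genes that fell and 18.5% that rose (49.1% together). Rescaling to TPM raised the 19 calls to 30, with 16 cytosolic and 14 mitochondrial genes lower. The libraries summed to 464626 to 504696 FPKM with IL-1β and to 446867 to 455479 without it, so this rescaling shifted all genes downward. The shares of all tested genes given above are those without rescaling, and those after it are not given here. Ears2 was at 3.11, 2.70 and 2.97 FPKM against 2.19, 1.95 and 1.83 FPKM, a difference of -0.39 (SE 0.109, adjusted p = 0.00461, limma). Rars2 was at 17.8, 16.4 and 17.2 FPKM against 12.4, 12.6 and 14.5 FPKM, a difference of -0.36, and Aars was at 139, 135 and 135 FPKM against 102, 107 and 109 FPKM, also -0.36. Treated libraries lay below untreated ones in all 3 genes. The interaction of co-culture and IL-1β at 72 h passed for 0 of 37 genes by limma, where 1.68% of all tested genes were positive and 1.43% negative (3.11% together), and 4 synthetases had an unadjusted p under 0.05. Without the second IL-1β library of normal culture 3 cytosolic genes passed.

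**Figure D4:**
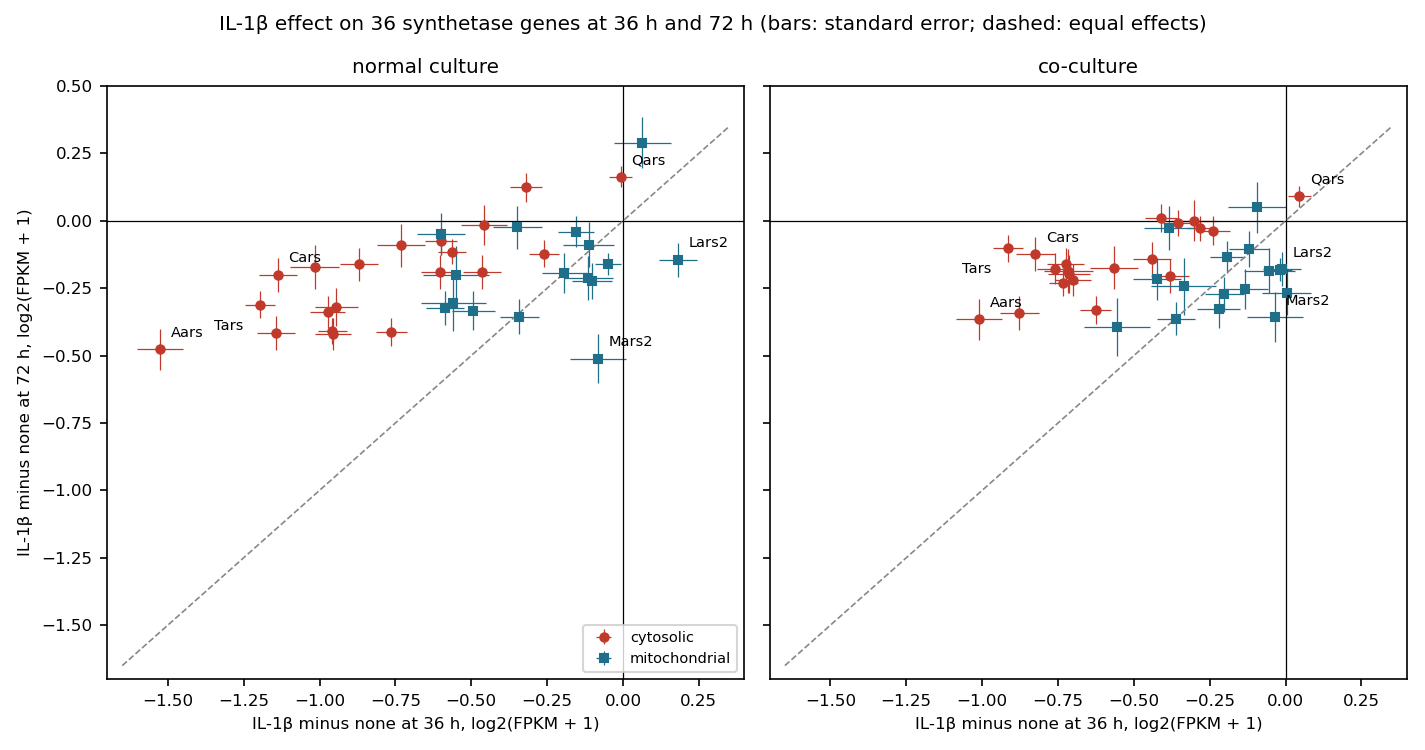
IL-1β effect at 72 h (vertical) against 36 h (horizontal), as differences in log2(FPKM + 1), for 36 synthetase genes in normal culture (left) and co-culture (right); red circles are cytosolic, blue squares mitochondrial, bars are standard errors and the dashed line marks equal effects. Aars lies at -1.53 and -0.48 in normal culture, while Mars2 lies below the line at -0.08 and -0.51.

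The change of the IL-1β effect between the times was tested directly. In normal culture the effect on 19 of 20 cytosolic genes shifted upward by 72 h and that on 0 downward, beside 23.7% of all tested genes with an upward and 21.6% with a downward shift (45.4% together). The largest were Aars with 1.05 (SE 0.107, adjusted p = 7.61e-08, limma), Cars with 0.94 and Tars with 0.88, and Dars, at 0.14, was the gene that did not pass. Of the mitochondrial genes 3 of 17 changed in the same direction, Cars2 by 0.55, Yars2 by 0.32 and Rars2 by 0.26, and 2 changed in the other, Mars2 by -0.43 and Lars2 by -0.33. In co-culture 17 of 20 cytosolic genes shifted upward and 0 downward, beside 14.1% and 14.8% of all tested genes (28.8% together), led by Tars with 0.81, Cars with 0.70 and Aars with 0.64. Among the mitochondrial genes Yars2 changed by 0.36 and Iars2 by -0.16.

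The treated cultures themselves gained cytosolic synthetase mRNA between 36 h and 72 h. In normal culture with IL-1β 20 of 20 cytosolic genes rose, with a median of 0.76, beside 37.1% of all tested genes that rose and 32% that fell (69.1% together). Cars went from 17.0, 16.9 and 18.1 FPKM to 39.2, 45.4 and 49.5 FPKM, a difference of 1.31 (SE 0.063, adjusted p = 9.98e-14, limma), with no overlap. Aars and Tars had the next largest rises. In co-culture with IL-1β 20 of 20 rose as well, with a median of 0.76, beside 35.4% of all tested genes that rose and 28.9% that fell (64.3% together). Of the mitochondrial genes 5 rose and 3 fell in normal culture, and 6 rose and 1 fell in co-culture.

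Without IL-1β the gain with time was smaller. In normal culture 12 cytosolic genes rose and 1 fell, with a median of 0.20, beside 33.1% of all tested genes that rose and 25.3% that fell (58.4% together). Wars had the largest rise, from 21.0, 21.6 and 21.6 FPKM to 32.0, 33.7 and 33.6 FPKM, a difference of 0.61 (SE 0.063, adjusted p = 3.08e-08, limma). Its libraries did not overlap between the times. Eprs fell by 0.15, from 99.7, 101 and 98.2 FPKM to 91.5, 90.4 and 86.1 FPKM. Of the mitochondrial genes 6 rose and 4 fell. In untreated co-culture 16 cytosolic and 8 mitochondrial genes rose and 0 fell, beside 36.6% of all tested genes that rose and 24.9% that fell (61.5% together), with 0.72 for Tars2 and 0.58 for Wars. Of the 13 interferon-induced genes 9 fell and 0 rose with time in untreated normal culture, with a median of -0.92.

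**Figure D5:**
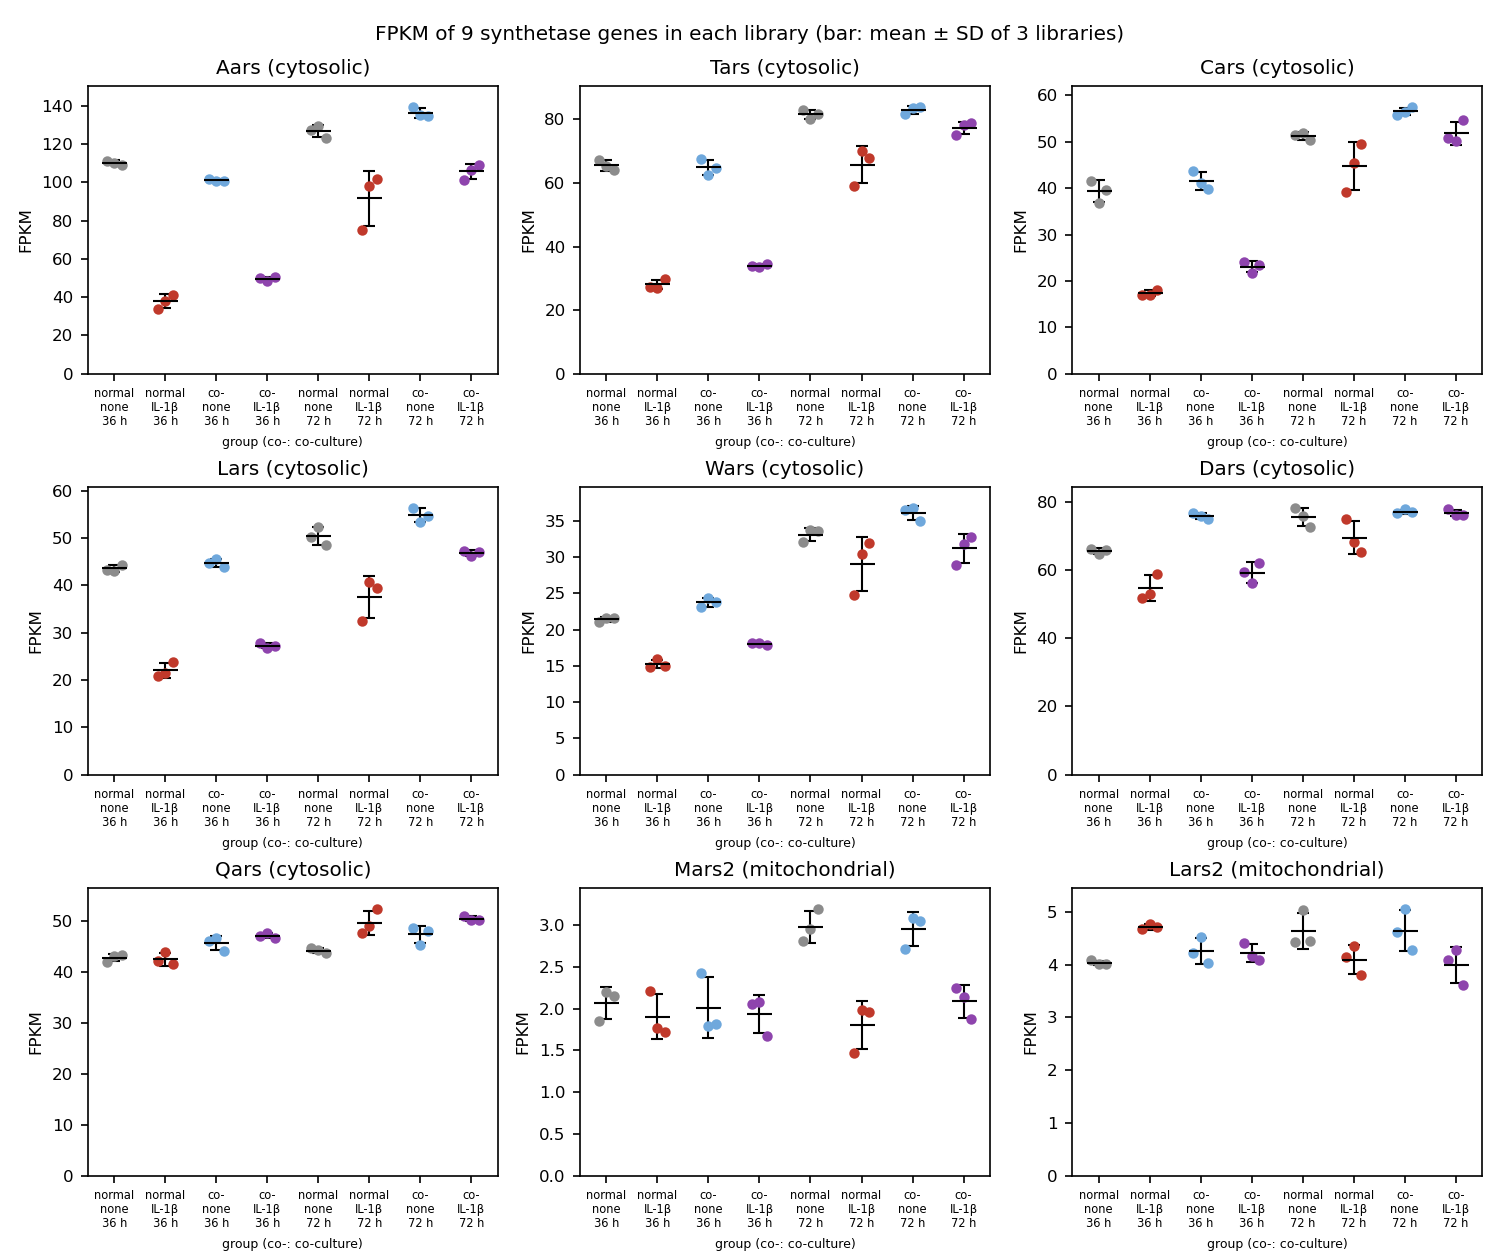
FPKM of 9 synthetase genes in each library (points) by group, with the mean ± SD of 3 libraries as bars and each axis from 0. Aars, Tars, Cars and Lars are lowest in the IL-1β groups at 36 h, Qars lies between 41.5 and 52.2 FPKM in all 24 libraries, and the first IL-1β library of normal culture at 72 h is the lowest of its group in Aars, Tars, Cars, Lars and Wars.

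The ATF4 pathway genes were also followed at the later time and in co-culture. At 72 h IL-1β lowered 17 of 30 and raised 6 in normal culture, with a median of -0.24, beside 40.3% and 23.1% of all tested genes. Atf4 differed by 0.05 and did not pass. In co-culture at 72 h 15 fell and 5 rose, beside 30.6% and 18.5% of all tested genes. With IL-1β at 36 h, 24 of 30 were higher in co-culture, beside 6.38% of all tested genes, with a median of 0.36 and with 0.96 for Trib3, 0.81 for Psat1 of serine synthesis and 0.35 for Atf4. At 72 h 19 of 30 were higher, beside 7.22% of all tested genes, with a median of 0.29, but 8 passed without the first IL-1β library of normal culture, 12 without the second of co-culture and 0 when the compared groups were fitted alone. Without IL-1β and with a filter at 5 FPKM, 7 of 30 were higher in co-culture and 1 was lower at 36 h. At 72 h the same fit had 9 higher and 0 lower. In the main fit 6.28% of all tested genes were higher and 9.2% lower at 36 h, and 1.72% and 1.68% at 72 h. Leaving out 1 library gave as few as 5 higher at either time. The comparisons share control libraries, so these counts are not independent of each other.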

How the data were processed

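Poly(A)-enriched RNA of 24 chondrocyte libraries was analysed. Per the labels' protocols, mRNA was captured with oligo(dT) beads and reverse transcribed with random primers. The authors deposited FPKM values rounded to 2 decimals. Genome build GRCm38 comes from the submitters' processing notes, and the aligner, counter, annotation and strandedness are not given in the sources used here. No read counts were recovered: a search for whole-read steps in 1511 genes (33295 values) found 16.9% within 0.1 of a step, where chance gives 20.0%. So no counting intervals are given.

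Values were analysed as log2(FPKM + 1) with limma 3.58.1 in R 4.3.3 (trended prior, 1 mean per group, 16 residual degrees of freedom), adjusted over the 12178 genes tested. Genes and overlaps came from GENCODE vM21, and promoters of 27 of the 37 genes were matched by NCBI gene ID in RefSeq. The scripts were tested on simulated data. The members and the 20 lists (184 genes, 2 not in the table) were chosen with earlier results of these data known. Members are given library by library when among the 3 largest rises or falls that passed in an IL-1β or co-culture comparison. Wars and the extremes in level were added, and Eprs for its fall with time in untreated normal culture. Other lists are given by their largest changes. ATF4 list counts under other settings and the genes overlapping members were added after seeing the data. Figures used matplotlib 3.10.9. Some items are counted in totals but not reported here by name.

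Alternatives were log2(FPKM + 0.1), no filter, a filter at 5 FPKM, TPM, median-of-ratios scaling, a fit of the compared groups only, a block for replicate number, leaving out each library, and TGATGCAA as motif. Same-numbered libraries had correlated deviations above 0.1 for every number in 1 comparison, co-culture against normal culture with IL-1β at 72 h (0.36, 0.18 and 0.58). The labels give no origin for the numbers.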

Additional observations from a re-analysis of the deposited data

Results flagged for a closer look

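The IL-1β effect differed between the cultures at 36 h, by the interaction test, for 5 members: Aars (0.52), Cars (0.31), Tars (0.28), Hars (0.28) and Eprs (0.23), all on the scale of log2(FPKM + 1) and all with a smaller fall in co-culture.

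Between the times, 24 members differed in their response to IL-1β in normal culture, by the test of that difference. The largest positive changes were those of Aars (1.05), Cars (0.94) and Tars (0.88), and the negative ones those of Mars2 (-0.43) and Lars2 (-0.33).

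In co-culture it differed for 19 members, with Tars (0.81), Cars (0.70) and Aars (0.64) at the positive end and Iars2 (-0.16) at the other.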

How the results depend on the processing

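No synthetase that passed changed sign in any setting, and of the 30 members past the threshold with IL-1β at 36 h in normal culture, 27 passed in each setting run. For the IL-1β effect this held for 12 of 28 at 72 h in normal culture, and for 23 of 28 and 13 of 19 in co-culture at 36 h and 72 h. For the co-culture effect it held for 8 of 14 and 0 of 9 with IL-1β at 36 h and 72 h. Without IL-1β it held for 1 of 2 and 0 of 1, and for the interaction at 36 h for 2 of 5. Members passed were as follows where the count moved by over 1.5 times. For IL-1β at 72 h in normal culture 28 became 16 with median-of-ratios scaling, 17 with the compared groups only and 14 with the replicate block in the compared groups only. For IL-1β at 72 h in co-culture 19 became 30 after rescaling to TPM. For co-culture without IL-1β at 36 h 2 became 4 with median-of-ratios scaling, 8 with the compared groups only and 6 with the block added, and at 72 h 1 became 0 with no filter, TPM or the replicate block over all libraries, 10 with the compared groups only and 9 with the block added. For co-culture with IL-1β at 72 h 9 became 0 with the compared groups only, with or without the replicate block, and 10 with the block over all libraries. The interaction at 36 h went from 5 to 12 with the compared groups only, with or without the block. The replicate block moved no other count by over 1.5 times. The shares of all tested genes under these settings are not given here. These counts therefore describe the dependence on processing and are not read as particular to the synthetases.

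The Qars effect at 36 h, which did not pass, changed sign to 0.0559 in normal culture with median-of-ratios scaling, to 0.00036 without the third untreated library and to 0.00855 without the third IL-1β library, and to -0.0290 in co-culture with TPM, where median-of-ratios scaling gave 0.0886 (limma adjusted p = 0.0484, against 0.329); without 1 library at a time it ranged from -0.0316 to 0.00855 in normal culture. The cause was not tested in any of these cases.

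Leaving out 1 library at a time gave 28 to 30 members for IL-1β at 36 h and 19 to 27 at 72 h in normal culture, and 25 to 28 and 15 to 19 in co-culture. Co-culture without IL-1β gave 1 to 2 at 36 h and 0 at 72 h, and with IL-1β 8 to 13 and 4 to 18. The interaction gave 2 to 7 at 36 h and 0 to 3 at 72 h. The time comparisons gave 18 to 22 (untreated) and 25 to 28 (IL-1β) in normal culture, 24 to 25 and 23 to 26 in co-culture, and the change of the IL-1β effect with time 22 to 26 and 16 to 20. The unknown depth limits what can be said of members below about 5 FPKM.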
